A study of Mus musculus with 9 samples.

Results

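Many transcripts that mark the 2-cell mouse embryo carry no conventional gene name. In mouse embryonic stem cells (ESCs), 31 loci without a conventional name were strongly lowered after either Dppa2 or Dppa4 siRNA. Whether each of these loci marks the 2-cell embryo was not tested. They were chosen by their measured values. A locus was taken if its deposited name was a clone or number name (Gm, AC, CT, BC, or AF with digits, or ending in Rik), if its mean log2 expression with control siRNA was above 0, and if its means with Dppa2 siRNA and with Dppa4 siRNA were each at least 2.5 below the control mean. The deposited table has 25965 rows, and 6977 of them had such names. Of the 6977, 1100 had a control mean above 0, and 37 (3.36%) met the thresholds. Of the 37, 6 were left out by name, together with 5 further names that did not meet them. The same thresholds were met by 35 of the named genes with a control mean above 0 (0.314%) and by 0.587% of all rows with a control mean above 0. Since the values that chose the loci are those of both knockdowns against control, the decreases below are a description, and no test is given for them.

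The cells were E14 ESCs of 129/Ola background, grown without feeders in serum and LIF. According to the paper, the knockdowns were made in a line that carries fluorescent reporters for the MERVL retrovirus and for Zscan4c. In all groups the siRNA (control, Dppa2, or Dppa4) was given at 0 h and again at 48 h, and the RNA was taken at 96 h. Polyadenylated RNA was sequenced strand-specifically from 3 libraries per siRNA. Their titles end in rep3A, rep3B, and rep3C in every group, and they are called A, B, and C here. What the shared rep3 stands for is not given by the titles. The study's legends call the knockdown replicates biological, while the labels do not say whether they are separate cultures, so p-values measure the spread between these libraries. All 9 libraries come from 1 cell line, and an siRNA lowers a transcript without removing it. Deposited values are log2 expression after the distributions of the libraries had been matched. Read numbers were worked out from the ranks of distinct values within a library, and above 300 reads they are approximate. The estimated depth in Mreads was 19.8 to 41.4 for the control libraries, 17.5 to 25.7 for those of Dppa2 siRNA, and 21.7 to 28.8 for those of Dppa4 siRNA.

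The siRNA labels and the cell type were checked first. Dppa2 fell by 3.49 on the log2 scale with its own siRNA (SE 0.14, limma adjusted p = 2.1e-05) and Dppa4 fell by 0.93 with its own (SE 0.078, limma adjusted p = 0.00028), so that the Dppa4 transcript was only partly reduced. The paper reports a larger loss of Dppa4 mRNA by qRT-PCR. Its blots showed less Dppa4 protein and also less Dppa2 protein after Dppa4 siRNA, so the knockdowns overlap in the proteins they reduced. All 13 ESC markers were tested and 0 changed in either knockdown in limma's test, with 1 higher in each at an unadjusted p below 0.05. Pou5f1 had a control level of 10.19. Of 6 primitive endoderm markers, Gata6 (1.44, limma adjusted p = 0.013) and Sox17 (1.20, limma adjusted p = 0.035) rose with Dppa4 siRNA. With Dppa2 siRNA 0 of the 6 rose in limma's test. At an unadjusted p below 0.05, 3 were higher with Dppa2 siRNA and 5 with Dppa4 siRNA. The summed level of that list was 2.09 to 2.63 in log2 units with control siRNA. It was 2.71 to 3.22 in the Dppa2 siRNA libraries and 3.52 to 3.68 in the Dppa4 siRNA libraries, and its part in the decreases was not tested. The summed levels of 4 trophoblast and 5 fibroblast markers lay at 2.22 to 2.64 and 2.74 to 2.96 with control siRNA, and overlapped those in both knockdowns. Postn was at 0 reads in all 9 libraries.

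In a mouse embryo the genome is first transcribed in the zygote and the 2-cell stage, and a small, shifting part of ESCs in culture switches on the same set of transcripts. That set is rich in gene families that expanded by tandem duplication or by retrocopying, in which spliced mRNA of a parent gene is copied back into the genome. Dppa2 and Dppa4 are small chromatin-associated proteins of early embryos and ESCs that bind each other. In bulk RNA, fewer cells expressing a locus and less RNA per cell cannot be told apart.

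By sequence the loci fell into a few families. The annotated transcripts of 28 of the 31 matched the transcript of another annotated gene at 80% identity or more over at least 50% of the shorter transcript, and 3 matched none. By place they formed 13 groups on 9 chromosomes, of which 8 held 2 or more loci within 1 Mb of each other and together 26 of the 31. GENCODE classes 23 of the matched annotations as protein-coding, 4 as processed pseudogenes, 2 as unprocessed pseudogenes, and 2 as antisense transcripts. A single exon was annotated for 17. For Gm5698, Gm4027, and Gm2046 the annotated transcript only partly covers the deposited row. Of the 50-base stretches of the transcripts, a median of 45.7% occur in a gene at another place, 14 loci share more than 50% of them, and the 3 loci without a relative share 0. A read of 50 bases therefore cannot always be assigned to 1 copy, and the levels of single copies are uncertain within a family. The same shares were not worked out for other rows. Whether these properties are particular to the lowered loci was therefore not tested.

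**Figure D1:**
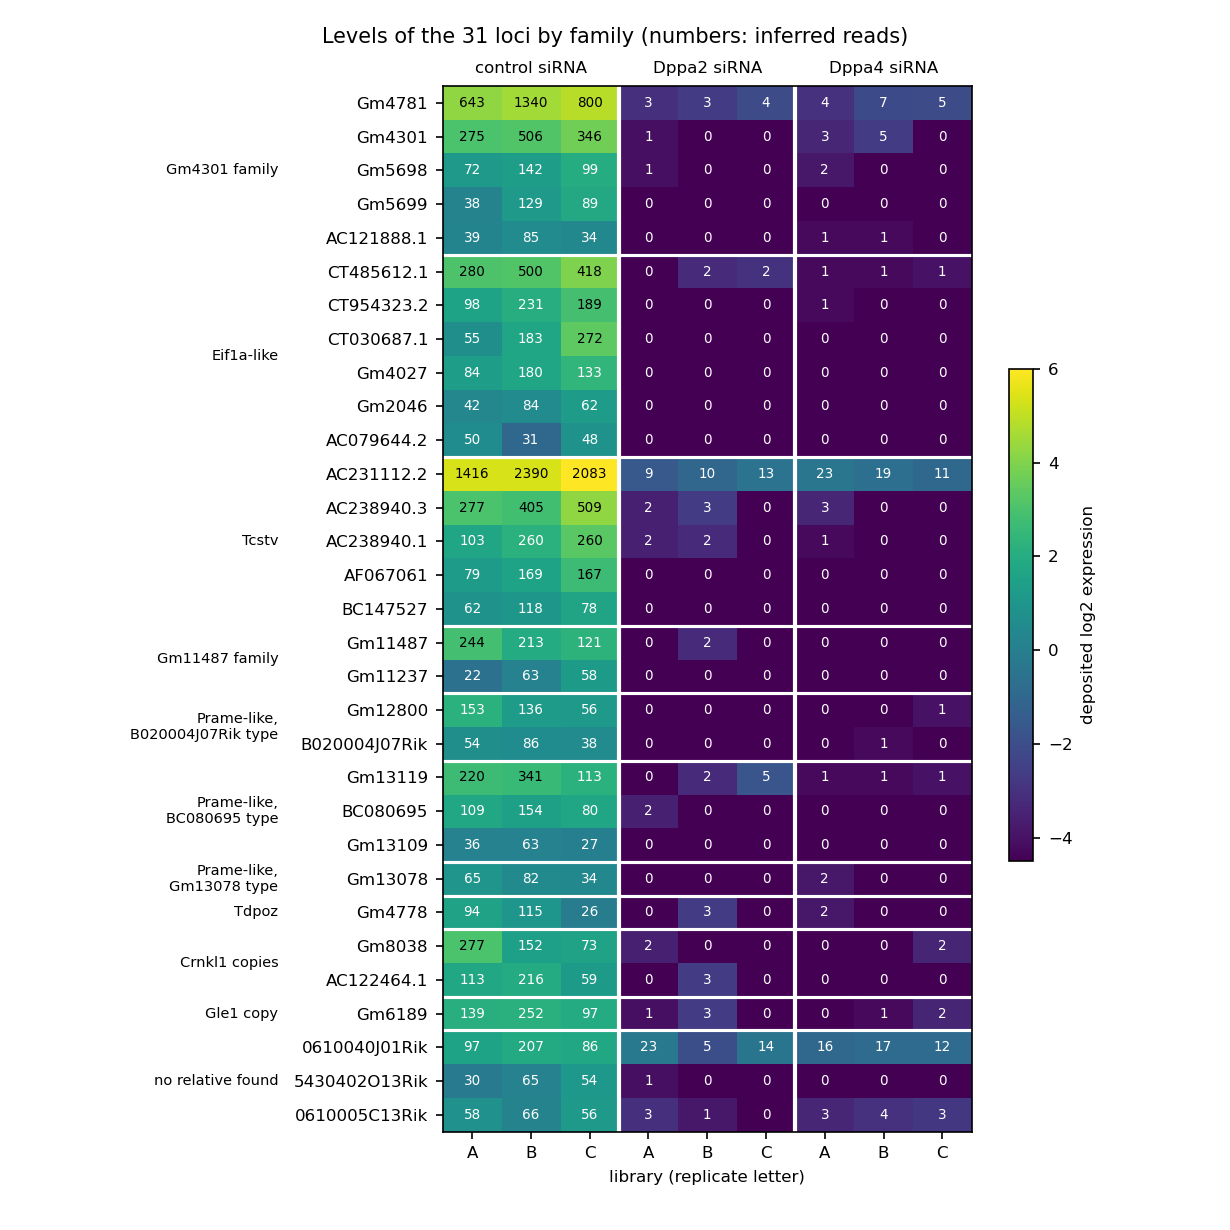
Deposited log2 expression (color) of the 31 loci (rows, grouped by sequence family and ordered by control mean) in the 9 libraries (columns), with the inferred number of reads in each cell. Control libraries hold 22 to 2390 reads per locus, while most cells of the knockdown libraries hold 0 to 5 and the exceptions are AC231112.2, 0610040J01Rik, and 1 library of Gm4781.

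The extent of copying is easiest to see in the Eif1a-like copies on chromosome 12. Eif1a encodes a translation initiation factor that acts in the scanning ribosome, and the unspliced copies are 94.2% to 95.2% identical to it over 434 bases. Of the 6 loci, 4 are annotated as single-exon transcripts of 435 bases that all begin with ATG, so that they can be compared position by position. They differ at 18 positions in all and are 97.0% to 98.9% identical in pairs. The stretch of 120 bases with the most differences, from position 171 to 290 of each transcript, is shown 5′ to 3′ on the transcribed strand in GRCm38, with the 7 positions that vary in capitals.
CT954323.2 (chr12:87919568-87919687, minus): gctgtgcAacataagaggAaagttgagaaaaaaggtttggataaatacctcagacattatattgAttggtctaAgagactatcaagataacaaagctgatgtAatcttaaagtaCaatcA
AC079644.2 (chr12:88027174-88027293, plus): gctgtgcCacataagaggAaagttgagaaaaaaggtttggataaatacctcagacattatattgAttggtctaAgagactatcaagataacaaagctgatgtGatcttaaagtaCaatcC
CT030687.1 (chr12:88249811-88249930, minus): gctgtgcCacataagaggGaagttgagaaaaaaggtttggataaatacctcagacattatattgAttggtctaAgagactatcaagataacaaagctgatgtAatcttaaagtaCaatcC
CT485612.1 (chr12:88321192-88321311, minus): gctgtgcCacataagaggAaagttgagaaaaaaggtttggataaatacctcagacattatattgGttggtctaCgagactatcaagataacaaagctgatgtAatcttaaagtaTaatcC

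RefSeq start sites (GRCm38) lay within 1000 bases of the start of 13 of the loci, and their 300-base promoter windows, from 250 bases before to 50 after the start, were compared. The letters TATAA occurred on the transcribed strand between -40 and -20 in 4 of the 13 (Gm11487, B020004J07Rik, BC080695, and Gm13078) and in 3.52% of all 32851 windows. In either direction and anywhere in the window it occurred in 8 of the 13 and in 24.9% of all. An inverted repeat of the half-site TGATT with 1 free base in the middle occurred in 0 of the 13 and in 0.0335% of all windows. The window of Gm11487, from a family of 6-exon genes, is an example with TATAA at -34 in capitals.
Gm11487 (chr4:73405023-73405322, minus): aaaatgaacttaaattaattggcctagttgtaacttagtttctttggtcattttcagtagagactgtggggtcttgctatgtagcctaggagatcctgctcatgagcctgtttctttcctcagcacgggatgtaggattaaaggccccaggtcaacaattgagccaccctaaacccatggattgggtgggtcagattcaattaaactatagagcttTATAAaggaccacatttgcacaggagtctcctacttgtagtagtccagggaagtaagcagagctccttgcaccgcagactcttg

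Promoter windows were alike within some of the families. The windows of AC231112.2 and AF067061, of the Tcstv family on chromosome 13, are 90.3% identical over 300 bases. In the 120 bases where they align best without a gap they are equal at 115, and the differing bases are in capitals.
AC231112.2 (chr13:119913515-119913634, minus): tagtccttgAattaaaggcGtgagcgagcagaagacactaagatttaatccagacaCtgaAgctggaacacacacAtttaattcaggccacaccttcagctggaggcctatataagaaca
AF067061 (chr13:120262929-120263048, plus): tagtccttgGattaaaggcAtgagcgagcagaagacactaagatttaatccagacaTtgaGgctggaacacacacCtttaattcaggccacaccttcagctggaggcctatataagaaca
On chromosome 4 the window of BC080695 is 92.6% identical over 271 bases to that of Gm13119, whereas the window of Gm13109, of the same family, resembled 0 other windows. The window of B020004J07Rik resembled 20 windows of other annotated starts at 81.2% to 89.9% identity, which lie at Gm4340, Pemt, Arih2, Sgk1, and others. The 80 bases around the start of B020004J07Rik and the best matching 80 of these windows show what is shared, with TATAA in capitals. Of the 80 bases 67, 67, and 64 are equal to those of B020004J07Rik at Arih2, Sgk1, and Pemt.
B020004J07Rik (chr4:101844003-101844082, minus): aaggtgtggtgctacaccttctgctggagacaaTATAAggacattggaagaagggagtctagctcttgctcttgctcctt
Arih2 (chr9:108653662-108653741, minus): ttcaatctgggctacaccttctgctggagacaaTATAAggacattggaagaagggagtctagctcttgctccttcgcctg
Sgk1 (chr10:21986039-21986118, plus): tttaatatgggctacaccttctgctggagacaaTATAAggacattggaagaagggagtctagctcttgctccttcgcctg
Pemt (chr11:60040175-60040254, minus): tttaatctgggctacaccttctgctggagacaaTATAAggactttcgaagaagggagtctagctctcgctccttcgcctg
These 3 genes were the only ones with such a window that were tested in the deposited table, and 0 of the 3 were lowered in either knockdown in limma's test or at an unadjusted p below 0.05. Over all rows tested, 2.27% were lowered with Dppa2 siRNA and 2.34% with Dppa4 siRNA. Their rows count the whole gene, so a transcript from this start would be a part of the value.

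Across all 31 loci the log2 change ranged from -7.63 to -2.65 with Dppa2 siRNA (median -5.80) and from -7.53 to -2.63 with Dppa4 siRNA (median -6.11). The control means ranged from 0.10 to 5.66. Summed over the loci, control libraries A, B, and C held 5324, 8964, and 6565 reads. The Dppa2 siRNA libraries held 50, 39, and 38, and the Dppa4 siRNA libraries held 63, 57, and 38. There were no reads in any of the 3 libraries for 14 loci with Dppa2 siRNA, for 13 with Dppa4 siRNA, and for 9 with both. At a floor of 3 reads per library, these loci were at least 7.08-fold to 29.8-fold lower with Dppa2 siRNA and at least 9.78-fold to 46.7-fold lower with Dppa4 siRNA. With these groups at their bound, the median change was -4.71 and -5.05, so that the depth limits how large a decrease could be measured. Floors and intervals cover counting error only. Nearest to the threshold among the loci was 0610040J01Rik (-2.65 and -2.63), and the next, 0610005C13Rik (-4.52 and -3.78) and Gm13109 (-4.58 and -4.59), lay well past it. Just outside it were Gm5590 (-2.5 and -2.74), D630013G24Rik (-2.19 and -1.91), and AC239678.1 (-1.84 and -1.90).

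**Figure D2:**
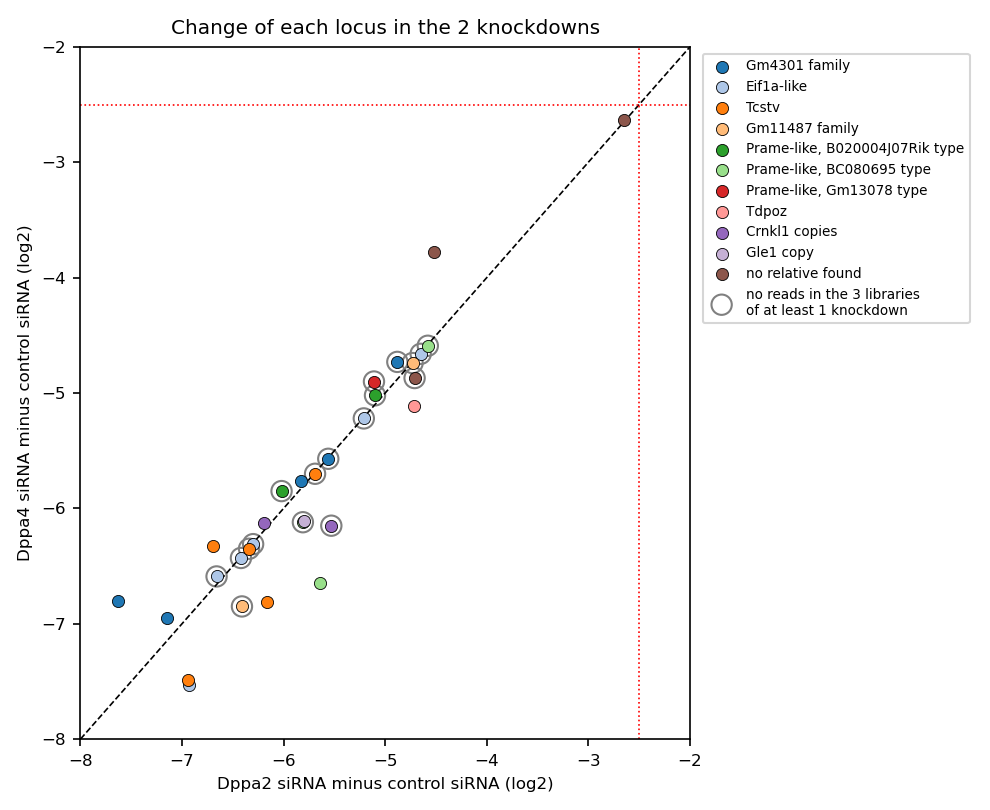
Log2 change of each locus from the mean with control siRNA, with Dppa2 siRNA on the x axis and Dppa4 siRNA on the y axis, colored by family. Dotted lines mark the threshold of 2.5 that chose the loci, the dashed line marks equal changes, and rings mark loci with no reads in the 3 libraries of a knockdown, whose position is set by the lowest value of the table.

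The Tcstv genes code for small 2-cell-specific proteins, and 5 loci of this family lay on chromosome 13 from 119912237 to 120308649. AC231112.2 (annotated as Gm21761) had the highest deposited value of all 31 loci, and the highest per kilobase of transcript among the 28 whose transcript covers the row. Its log2 expression was 5.38, 5.37, and 6.24 in control libraries A, B, and C, then -1.56, -1.03, and -0.52 with Dppa2 siRNA and -0.38, -0.65, and -0.96 with Dppa4 siRNA. The 6 knockdown libraries lay below 0 and the control libraries above 5, and 9 to 23 reads per knockdown library remained of 1416 to 2390 with control siRNA. These reads were 0.720% (exact Poisson 95% interval 0.492% to 1.02%) and 0.961% (0.720% to 1.26%) of the control level. AC238940.3, AC238940.1, AF067061, and BC147527 had control means of 3.37, 2.40, 1.86, and 1.21 and 0 to 3 reads per knockdown library. Identity to Tcstv1 or Tcstv3 ran from 87.1% to 96.7% among the 5.

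The 6 Eif1a-like loci lay on chromosome 12 from 87618909 to 88321481. CT485612.1 (annotated as Gm5039, a name among those left out) was the highest of them, with log2 expression of 3.06, 3.13, and 3.97 with control siRNA. It had -4.49, -3.21, and -2.95 with Dppa2 siRNA and -4.25, -4.23, and -3.97 with Dppa4 siRNA. Control libraries held 280 to 500 reads of it and knockdown libraries 0 to 2, which for Dppa4 siRNA was 3 reads in all, or 0.276% of the control level (exact Poisson 95% interval 0.0569% to 0.807%). CT954323.2, CT030687.1, Gm4027, Gm2046, and AC079644.2 had control means of 2.18, 1.94, 1.82, 0.73, and 0.17 and together 1 read in the 6 knockdown libraries. The named relative Eif1a, which is spliced and lies on chromosome 18, had a control mean of 7.27. Its changes were -0.01 (SE 0.13, limma adjusted p = 0.99) and -0.18 (SE 0.13, limma adjusted p = 0.562). Eif1ax, a relative on chromosome X, had a control mean of 7.15. It changed by 0.15 (limma adjusted p = 0.577) and -0.15 (limma adjusted p = 0.495). Which gene the copies came from was not tested.

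The Gm4301 family had 2 loci on chromosome 10 and 3 on chromosome 1. Gm4781, an unprocessed pseudogene, was the highest, with log2 expression of 4.24, 4.54, and 4.87 with control siRNA. It had -3.09, -2.65, and -2.04 with Dppa2 siRNA and -2.99, -2.13, and -2.07 with Dppa4 siRNA. Of 643 to 1340 reads per control library, 3 to 7 remained in every knockdown library. Gm4781 shares 29.0% of its 50-base stretches with other genes, so whether these few reads all arose from it was not tested. Gm4301, whose place is annotated as Gm4312, shares 100% of its 50-base stretches with other genes. It had log2 expression of 3.03, 3.15, and 3.71 with control siRNA, -4.05, -4.48, and -4.47 with Dppa2 siRNA, and -3.38, -2.63, and -4.49 with Dppa4 siRNA. The loci on chromosome 1 were lower, and Gm5698 had 1.16, 1.33, and 2.0 with control siRNA. Gm5698 had -4.05, -4.48, and -4.47 with Dppa2 siRNA and -3.82, -4.49, and -4.49 with Dppa4 siRNA. Its neighbors Gm5699 (control mean 1.08) and AC121888.1 (0.40) had 0 to 1 read in every knockdown library. The named relative Alyref, on chromosome 11, had a control mean of 7.16. It changed by -0.0 (SE 0.199, limma adjusted p = 0.999) with Dppa2 siRNA and by -0.08 (SE 0.199, limma adjusted p = 0.909) with Dppa4 siRNA.

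Prame-like genes are leucine-rich repeat genes that expanded in rodents and are expressed in germ cells and early embryos, and 6 loci were of this kind. Those on chromosome 4 from 101834969 to 101911908 were Gm12800 and B020004J07Rik (RefSeq Pramel17), which are 81.3% identical. Gm12800 had log2 expression of 2.21, 1.26, and 1.14 with control siRNA, and of its 6 knockdown libraries only Dppa4 siRNA replicate C held a read. Those on the same chromosome from 143551700 to 144364419 were Gm13119, BC080695, and Gm13109, which are at least 96.0% identical, and Gm13078, which is 93.9% identical to Pramef6. Gm13119 had 2.71, 2.59, and 2.19 with control siRNA, -4.49, -3.21, and -1.73 with Dppa2 siRNA, and -4.25, -4.23, and -3.97 with Dppa4 siRNA. Its Dppa2 siRNA libraries ranged from 0 to 5 reads, whereas each Dppa4 siRNA library held 1. BC080695, Gm13078, and Gm13109 had control means of 1.63, 0.63, and 0.10 and 0 to 2 reads per knockdown library.

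Other families had 1 or 2 loci. Gm11487 and Gm11237 (annotated as Gm11238) on chromosome 4 are 96.7% identical and have 6 exons each. Gm11487 had 2.86, 1.94, and 2.28 with control siRNA and 2 reads in the 6 knockdown libraries, both in Dppa2 siRNA replicate B. Gm11237 had 22 to 63 reads per control library and 0 in the knockdown libraries. Gm4778, of the Tdpoz family of Spop-related genes with MATH and BTB/POZ domains, had 94, 115, and 26 reads with control siRNA and 0 to 3 in the knockdown libraries. Spop itself changed by 0.19 (limma adjusted p = 0.42) and 0.05 (limma adjusted p = 0.87).

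Retrocopies of Crnkl1 and Gle1 were among the loci. Gm8038 and AC122464.1 (annotated as Gm5989), both on chromosome 6, are 89.5% identical to Crnkl1, a splicing factor, and 99.0% identical to each other. Gm8038 had log2 expression of 3.04, 1.43, and 1.55 with control siRNA, -3.59, -4.48, and -4.47 with Dppa2 siRNA, and -4.49, -4.49, and -3.40 with Dppa4 siRNA. AC122464.1 had 1.80, 1.96, and 1.23 with control siRNA and 3 reads in the 6 knockdown libraries, all in Dppa2 siRNA replicate B. Gm6189, on chromosome 1, is 89.2% identical to Gle1, an mRNA export factor. It had 2.07, 2.17, and 1.98 with control siRNA, -4.05, -2.65, and -4.47 with Dppa2 siRNA, and -4.49, -4.23, and -3.40 with Dppa4 siRNA. For each retrocopy every control library lay above every knockdown library, which the thresholds nearly fix, and which held for 5.75% of all rows tested. The deposited values of the parents were higher, with control means of 6.23 for Crnkl1 and 6.22 for Gle1. Crnkl1 changed by -0.02 (SE 0.098, limma adjusted p = 0.981) and -0.08 (SE 0.098, limma adjusted p = 0.758), and Gle1 by -0.03 (SE 0.10, limma adjusted p = 0.964) and -0.06 (SE 0.10, limma adjusted p = 0.844). Another Crnkl1 copy, Gm4782, lies 13772 bases from 5430402O13Rik. Its changes of -2.48 (limma adjusted p = 0.118) and -3.07 (limma adjusted p = 0.056) from 19 to 38 control reads did not pass the test.

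The 3 loci without a relative were of another kind. The windows of 0610040J01Rik and 5430402O13Rik hold 35 and 40 CpG dinucleotides, against a median of 7 over all windows and 1 to 7 in the other 11. The window of 5430402O13Rik is shown with CpG in capitals.
5430402O13Rik (chr6:50566393-50566692, plus): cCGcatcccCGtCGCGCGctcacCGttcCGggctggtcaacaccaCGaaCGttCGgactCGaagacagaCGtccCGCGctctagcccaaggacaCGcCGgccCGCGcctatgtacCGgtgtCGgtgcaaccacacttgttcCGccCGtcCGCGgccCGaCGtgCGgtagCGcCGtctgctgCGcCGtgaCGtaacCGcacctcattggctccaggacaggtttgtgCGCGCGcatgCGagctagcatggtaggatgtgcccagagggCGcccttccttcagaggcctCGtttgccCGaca
5430402O13Rik is an antisense transcript that begins 105 bases from the row of Cycs, which encodes cytochrome c and is transcribed in the opposite direction. The start of the Cycs row lies within the window shown. Each control library held 30 to 65 of its reads, and the 6 knockdown libraries held 1 in all. Its row overlaps that of 4921507P07Rik on the other strand, which had 15 to 40 reads with control siRNA and changed by 0.07 (limma adjusted p = 0.97) and -0.26 (limma adjusted p = 0.682). Cycs changed by 0.41 (SE 0.20, limma adjusted p = 0.381) with Dppa2 siRNA and by 0.11 (SE 0.20, limma adjusted p = 0.855) with Dppa4 siRNA. 0610005C13Rik, an antisense transcript on chromosome 7 that overlaps Bcat2, had log2 expression of 0.82, 0.20, and 1.14 with control siRNA. It had -3.09, -3.84, and -4.47 with Dppa2 siRNA and -3.38, -2.99, and -2.81 with Dppa4 siRNA. Bcat2, which encodes a mitochondrial branched-chain aminotransferase, changed by 0.22 (limma adjusted p = 0.701) and 0.16 (limma adjusted p = 0.731). The counting was strand-specific, so reads of the overlapping pairs are told apart.

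0610040J01Rik, a 4-exon protein-coding gene on chromosome 5 from 63812495 to 63899619, kept the most of its level. It had 1.58, 1.90, and 1.80 with control siRNA, -0.27, -1.98, and -0.42 with Dppa2 siRNA, and -0.94, -0.83, and -0.83 with Dppa4 siRNA. Every knockdown library lay below every control library, and Dppa2 siRNA replicate B was the lowest. Its reads were 15.9% (exact Poisson 95% interval 11.5% to 21.5%) and 14.0% (10.2% to 18.8%) of the control level, whereas the highest such share of any other locus was 6.91%. The nearest expressed gene, Rell1 at 9277 bases, changed by -0.08 (limma adjusted p = 0.814) with Dppa2 siRNA. With Dppa4 siRNA it fell by 0.45 (limma adjusted p = 0.031), a call that was lost with a replicate block and without any 1 of 8 of the 9 libraries.

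The contrast that did not choose the loci is that between the knockdowns. In limma's test of Dppa4 siRNA against Dppa2 siRNA, 0 of the 31 loci differed at an adjusted p below 0.05, and 0 at an unadjusted p below 0.05. The share over all 14601 rows tested was 0.0205%, with 987 rows below 0.05 before adjustment. The loci were required to be low in both knockdowns, which limits how far apart they can lie. The differences ranged from -1.01 to 0.84, and of the 22 loci with a read in any knockdown library 10 were lower and 12 higher with Dppa4 siRNA. The other 9 differ by 0.01 through the lowest values of the table alone. All 95% intervals included 0, and their half-widths ranged from 0.728 to 1.40 log2 units, so that smaller differences could be missed. The spread behind them is estimated over all 9 libraries and so includes that of the control libraries. CT030687.1 had SDs of 0.01 and 0.0 in the knockdowns and 1.33 with control siRNA, and a half-width of 1.36. For the 9 loci without reads in either knockdown, the intervals set no bound on the difference. The largest differences were those of Gm13119 (-1.01, interval -2.36 to 0.35), Gm4301 (0.84, -0.22 to 1.89), and 0610005C13Rik (0.74, -0.27 to 1.75). Gm13119 had 7 reads in all with Dppa2 siRNA and 3 with Dppa4 siRNA, and Gm4301 had 1 and 8.

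Rows beside the loci were examined to see whether the decrease extended to their surroundings. Of 252 other rows within 500 kb, 132 were tested. Of the 132, 58 lie around 0610005C13Rik and are unrelated to a locus in sequence, and no other place had more than 17. The share of unrelated neighbors lowered therefore rests in large part on that place. With Dppa2 siRNA 12 of the 132 were lowered (9.09%, against 2.27% of all rows tested) and with Dppa4 siRNA also 12 (9.09%, against 2.34%), and 11 of them in both. Divided by sequence, 10 of the 11 tested neighbors that are related to a locus were lowered in both knockdowns, whereas of the 121 others 2 (1.65%) were lowered with each siRNA. The 10 were Tdpoz3, Gm12794, Gm13083, AC164627.1, Gm8300, Gm5662, Gm2022, Gm2016, Tcstv1, and Tcstv3. Of these, Gm12794 and the 4 Gm loci of chromosome 12 met the thresholds and were left out by name, and Tcstv3 met them under its gene name, so that their count is no independent support. Of the 11, 8 had no knockdown library above the minimum of the filter and were tested through the control libraries alone, while the other 42 related rows were not tested, so the share lowered was largely fixed by the filter. Tdpoz3, Gm13083, AC164627.1, and Tcstv1 had control means of -0.96, -0.90, -0.09, and -1.26, below the minimum of 0, and no more than 1 read in any knockdown library. Where a knockdown held no reads, the fitted change is set by the lowest value of the table and is no bound. The others that passed were Tdpoz4 in both knockdowns (-4.65 and -4.65), Rasip1 with Dppa2 siRNA (-1.09, limma adjusted p = 0.034), and Rell1 with Dppa4 siRNA. AC150897.1 (0.90, limma adjusted p = 0.0145) and Ccdc114 (0.56, limma adjusted p = 0.033) rose with Dppa4 siRNA, so that 2 of the 121 others rose and 2 fell, while 0 rose with Dppa2 siRNA. Tdpoz4 also belongs by name to the Tdpoz genes and missed the sequence criterion. On chromosome 12, Gm5662 fell by 7.93 and Gm2022 fell by 7.80 with Dppa2 siRNA. When 1 control library was left out, 3 of the 12 lowered rows still passed the filter of 3 libraries, and 2 or 3 of the 3 with Dppa2 siRNA and 2 with Dppa4 siRNA passed the test. With the 14601 rows kept, 12 and 11 or 12 passed, with median changes of -4.97 to -5.18 and -5.27 to -5.48.

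**Figure D3:**
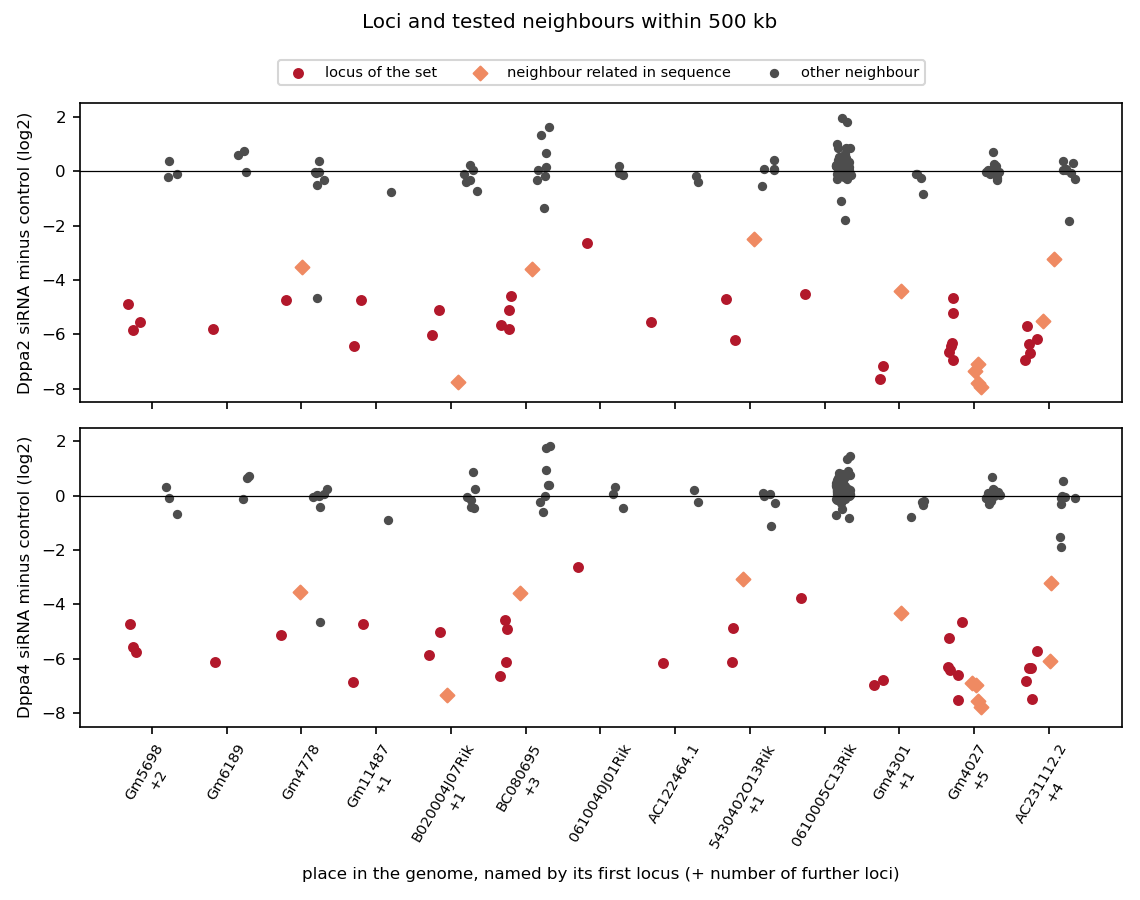
Log2 change from control siRNA (y axis; Dppa2 siRNA above, Dppa4 siRNA below) of the loci (red), of tested neighbors within 500 kb that are related to a locus in sequence (orange diamonds), and of other tested neighbors (gray), at the 13 places (x axis; small horizontal shifts separate the points). Related neighbors lie at -2.48 or lower, and Gm4782 lies above both loci at its place. All of the other neighbors except Tdpoz4 lie between -2 and 2.

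Named genes of the 2-cell stage were examined for comparison with a list of 32 genes. The list was written with earlier results of these data known. Of these, 24 were found by name and 19 were tested. In limma's test 15 were lowered with Dppa2 siRNA (against 2.27% of all rows tested) and 16 with Dppa4 siRNA (against 2.34%). In that test 0 were raised, and 0 and 2 were higher at an unadjusted p below 0.05. Most of the lowered genes passed the filter through the control libraries alone, so the share lowered was largely fixed by the filter. The median change over the 19 was -4.65 in both knockdowns, against 0.02 and 0.03 over all rows tested. It is the change of Tdpoz4, which had 0 reads in every knockdown library, so the lowest value of the table sets it. Zscan4d, a zinc-finger protein gene of the 2-cell stage, fell by 6.94 and 7.38, and Zfp352 fell by 5.31 and 5.66. Tcstv3 fell by 5.5 and by 6.08. Members of the list that lie in the Prame-like families differed. Pramel6 and Pramel7 fell by 2.26 and by 2.1 with Dppa2 siRNA, whereas Pramef8 and Pramef12, at control means of 4.61 and 4.85, changed by 0.05 (limma adjusted p = 0.954) and 0.17 (limma adjusted p = 0.623). With Dppa4 siRNA both changed by 0.40 (limma adjusted p = 0.135 and 0.123), and they are the 2 genes higher at an unadjusted p below 0.05. Pramef25, which was not found by name, is the annotated name of Gm13109. When 1 control library was left out, 5 of the lowered genes still passed the filter, of which 4 or 5 passed the test in each knockdown. With the rows kept, 15 passed in each.

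The control libraries differed among themselves, and within most families the loci of the set had the same order of A and C. All 16 loci of the Gm4301, Eif1a-like, and Tcstv families were lower in control siRNA replicate A than in replicate C, by a median of 0.94. Of the other 15 loci, 11 were higher in A than in C, including all of the Prame-like loci, Gm4778, and the retrocopies of Crnkl1 and Gle1. The Gm11487 family was divided, with A minus C at 0.59 for Gm11487 and -1.81 for Gm11237. Over all rows tested the median of A minus C was -0.04. These 3 families were not set apart in advance. CT030687.1 had the widest spread, with 55, 183, and 272 reads in A, B, and C, and Gm8038 had 277, 152, and 73. Differences of more than 1 between A and C were seen for 12 of the 31 loci, and for 20.6% of the 3681 tested rows with a control mean between 0 and 3. Related neighbors did not all follow. Of the Eif1a-like family, Gm5662, Gm8300, and Gm2022 were higher in A than in C (2.65, 0.24, and 0.24), while Gm2016 was lower (-1.06). AC164627.1 of the Gm4301 family was higher in A (0.45), and Tcstv1 and Tcstv3 were lower (-0.91 and -1.26). Gm5662 had 953, 944, and 111 reads in A, B, and C. Loci of a family share sequence, so they are not separate observations. Of the 16 loci 14 have a single exon, as have 3 of the other 15, and the GC content of the transcripts was 37.6% to 52.0% in the 16 and 43.8% to 55.1% in the others. The part of these properties in the differences was not tested. For every locus the differences between control libraries were smaller than the decrease in the knockdowns. The thresholds that chose the loci largely fix this outcome.

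**Figure D4:**
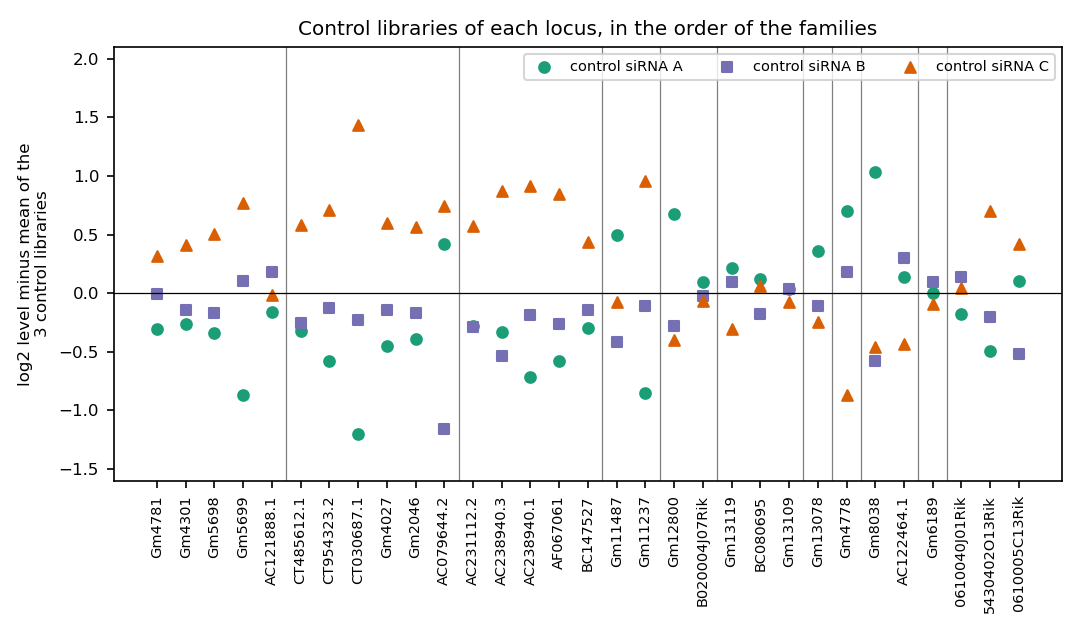
Log2 level of each locus in control siRNA libraries A (circles), B (squares), and C (triangles) minus the mean of the 3 (y axis), with the loci in the order of their families (x axis; gray lines separate families, and the last 3 loci have no relative). C lies above A for the 16 loci of the first 3 families, and A lies above C for 11 of the 15 loci to their right.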

How the data were processed

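RNA-seq of 9 libraries was used, 3 each for control, Dppa2, and Dppa4 siRNA as the labels give them. The authors trimmed reads with Trim Galore (0.4.5 in the submitters' processing notes), aligned them with HISAT2 2.0.5 (GRCm38), quantified mRNA probes by strand in SeqMonk, matched the distributions of the libraries, and deposited normalized log2 expression for 25965 rows. Matching of distributions makes levels relative and gives all rows without reads nearly 1 value. The loci and the gene lists were chosen with earlier results of these data known.

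A linear model with siRNA as its term and a trend by intensity was fitted over the 9 libraries (limma 3.58.1, R 4.3.3), on 14601 rows with log2 above -2 in at least 3 libraries, with Benjamini-Hochberg adjustment at 0.05, and was tested on simulated data. It took the place of the authors' DESeq2, which needs counts. Reads were taken as the rank of the distinct values of a library up to 300 and above that from the linear slope between 200 and 300 reads. Rows were matched to GENCODE vM21 transcripts by the listed identifier or by 80% overlap (3 of the 31 loci only in part). Families came from blastn 2.17.0 at 80% identity over 50% of the shorter transcript, and promoters from RefSeq (GRCm38), with likeness at 80% identity over 200 bases. Python 3.11.15, pandas 2.3.3, and scipy 1.17.1 made the tables.

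Per-library values were given for the locus with the highest control mean at each place with several loci, for single loci with a control mean above 1.5, and for the 3 largest differences between the knockdowns. Other filters, a pseudocount of 0.25, no trend, a replicate block, other thresholds and distances, and each library left out were tried.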

Additional observations from a re-analysis of the deposited data

How the results depend on the processing

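The number of loci was within 1.5 times 31 at thresholds of 2 and 3, with group medians, with a pseudocount of 0.25, and with each library left out (31 to 36). The median change moved from -5.80 to -4.52 with Dppa2 siRNA and from -6.11 to -4.85 with Dppa4 siRNA when libraries without reads were set to a floor of 3 reads, and to -4.71 and -5.05 with only the groups without reads at their bound, an alternative chosen after seeing the data. Between the knockdowns, 0 of the loci were called under any alternative (0 to 0 with libraries left out). Over all rows 3 were called, 5 without the filter on low values, 1 with a replicate block, and 1 to 3 with libraries left out. Of neighbors lowered (12 with each siRNA), 27 were called with Dppa2 siRNA without the filter and 7 with each siRNA under a filter of log2 above 0 in 3 libraries, which tests fewer rows. The ranges with libraries left out were 2 to 12 and 2 to 13, and for the named 2-cell genes 5 to 16 and 4 to 16, each lowest without a control library, where rows high in the control alone fail the filter. With the rows of the full filter kept, an alternative chosen after seeing the data, the counts without a control library were 12 and 11 to 12 for neighbors and 15 with each siRNA for the named genes. Replicate letters did not pair the libraries: same-letter correlations of deviations ran from -0.585 to 0.367, and the replicate block changed no count of lowered genes by over 1.5 times. Of 508 values of named single genes under alternatives, 7 gained and 9 lost a call, all for Gm4782, Rell1, or Plekha4. The depth, at 0 to 5 reads for most loci in the knockdowns, limits the size of the decreases.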

Other observations

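Levels per kilobase of transcript take the length of a locus into account, unlike the deposited values. They remain uncertain within a family, since AC231112.2, AC238940.3, and CT485612.1 share 70.7%, 73.1%, and 50.8% of their 50-base stretches with other genes. Among the 28 loci whose annotated transcript covers the deposited row, the log2 level per kilobase with control siRNA was highest for AC231112.2 (6.62), Gm4781 (4.91), CT485612.1 (4.59), and AC238940.3 (4.34), which lie on chromosomes 13, 10, and 12. Gm4301, CT954323.2, AC238940.1, and CT030687.1 followed at 3.43, 3.38, 3.36, and 3.14. The Prame-like loci were lower, from -0.65 for Gm13109 to 1.43 for Gm13119. AC231112.2 alone held 26.6% to 31.7% of the reads of the 31 loci in the control libraries. In the Dppa2 siRNA libraries its share was 18% to 34.2%, and in the Dppa4 siRNA libraries 28.9% to 36.5%.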
